A study of Mus musculus with 2 samples.

Results

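The collagen-expressing stromal cells of the cKO library were 101 of 5903 kept cKO cells (1.71%, exact Clopper-Pearson 95% interval 1.40 to 2.08%). They were chosen by measured values: at least 5 UMIs of Col3a1, Col1a1, Col1a2 and Dcn together, no UMI of Cd3d, Cd3e or Cd3g, and no UMI of Epcam. A UMI, or unique molecular identifier, marks 1 captured RNA molecule. A kept cell had at least 500 genes and at most 10% of its UMIs on mitochondrial genes, and both libraries together held 13298 such cells. The study sorted YFP+ cells from the thymus of Tbx21Cre Rosa26-YFP+ mice (control) and Tbx21Cre Ets1F/F Rosa26-YFP+ mice (cKO). In both groups Tbx21, which encodes the T cell factor T-bet, drives Cre, and the Rosa26 reporter makes YFP in cells that have expressed it and in their progeny. The cKO mice also carried floxed Ets1, the gene of an ETS family transcription factor. Each genotype was 1 library pooled from 2 mice, without a label for each mouse. No test was therefore made, and all intervals cover counting error only. The labels used here give no age.

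Mesenchymal cells build the connective tissue of an organ. Fibroblasts secrete fibrillar collagens and the proteoglycans that coat them, smooth muscle cells and myofibroblasts contract, and pericytes wrap capillaries. Fibroblasts of the gut wall send BMP, WNT and R-spondin signals to the epithelium, while mesenchyme of the thymic capsule and septa supports thymic epithelium and developing T cells. Position along the body is recorded in mesenchyme by homeobox genes.

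The cKO matrix held 11206 barcodes and 39979742 UMIs, and the control matrix 10102 barcodes and 35210431 UMIs. Kept cells had a median of 5533 UMIs in the cKO library and 2666 in the control library. The collagen-expressing cells were shallower, with a median of 1916 UMIs (698 to 5955), 1066 genes and 4.08% mitochondrial UMIs, and 197777 UMIs in all. The same rule found 0 of 7395 kept control cells, an upper limit of 0.0406%. The kept control cells held 11 UMIs of the 4 collagen and decorin genes, each in a different cell. Both libraries shared 29 barcodes, of which 18 were kept in the cKO library and 0 were collagen-expressing cells.

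Members held 5 to 402 UMIs of the 4 genes, with a median of 56, or 3.11% of a cell's UMIs (0.200 to 11.7%). At least 20 such UMIs were found in 78 of the 101. Just inside the threshold, 4 members held 5 UMIs (924 to 2495 UMIs in all), and just outside it 6 cells held 4 (679 to 1558 UMIs in all). A further 176 kept cKO cells reached 5 UMIs of these genes but were left out, 169 of them with an Epcam UMI and 18 with a CD3 UMI. Those cells had a median of 7 such UMIs, 0.403% of their UMIs. Their intestinal epithelial RNA was high, with Fabp2, a fatty acid binding protein of enterocytes, at 26256 CPM (counts scaled to 1000000 UMIs) and Zg16, a goblet cell lectin, at 16416 CPM, beside 2270 CPM of Col3a1. The left-out cells were thus mostly cells with little collagen RNA beside much epithelial RNA. 24 of them held over 1% of their UMIs on the 4 genes.

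The genes of the rule were high by choice. Col3a1, the chain of type III collagen (GRCm38 chromosome 1, 45311538 to 45349706, plus strand), was at 15103 CPM (exact Poisson 95% interval 14566 to 15654), and its lowest, median and highest UMI counts per cell were 0, 21 and 157. It was found in 99 of the 101 cells. Col1a1 and Col1a2, the chains of type I collagen, were at 6194 and 7220 CPM. Decorin (Dcn, chromosome 10, 97479609 to 97518143, plus strand), a small proteoglycan that binds collagen fibrils, was at 9885 CPM in 96 cells, with 0, 15 and 81 UMIs per cell at its lowest, median and highest. These 4 genes chose the cells, so their levels are a description and do not check the label. Of stromal genes that the rule did not use, Lum, a collagen-binding proteoglycan, had a UMI in 84 of the 101 cells, Cd34 in 56, Pdgfra in 43 and Acta2, smooth muscle actin, in 33. The label went against the values of 7 members, which held more UMIs of gut epithelium markers (22 to 118) than of the rule's genes (5 to 17). Those markers made 2.38 to 11.6% of their UMIs, beside 12.6% in the epithelial cells of the library. These 7 cells stay among the 101 by the rule. Below, Col3a1, the gut and thymic mesenchyme lists, the gut epithelium list and the number of contractile cells are given with and without them. Some values of the Adamdec1 split are given so too, and all other values include them.

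Markers of T, myeloid, mast and erythroid cells were at or near 0. B cell and plasma cell markers summed to 126 and 298 CPM, as given below. Ptprc, the gene of the leukocyte antigen CD45, had 2 UMIs in members (10.1 CPM), beside 1263 CPM in the 5802 other kept cKO cells. The T cell marker list (Cd3d, Cd3e, Cd3g, Trac and 6 more) held 5 UMIs, all of Nkg7, Trbc2 and Cd2, and 7 of its 10 genes were at 0, 3 of them by the rule. Tbx21, which drives the Cre of the sort, had 0 UMIs in members, which allows up to 15.2 CPM, beside 97.2 CPM in the other cells. Ets1 had 4 UMIs in 4 members (20.2 CPM, 5.51 to 51.8), beside 152 CPM in the other cells. At this depth neither gene's RNA was more than marginal in the collagen-expressing cells. YFP protein was not measured here, and how these cells entered the sort was not tested. Myeloid markers (Lyz2, C1qa, C1qb and 7 more) summed to 30.3 CPM, mast cell markers (Mcpt1, Mcpt2, Cpa3 and 3 more) to 0 UMIs, and erythroid markers (Hbb-bs, Hbb-bt, Hba-a1 and 3 more) to 1 UMI.

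Levels were set beside the other kept cKO cells as a description, since the rule chose the members from among them. Of 8257 genes with enough UMIs, 17.7% were at least 5-fold higher in members and reached 20 CPM, and 7.9% were at least 5-fold lower. The median log2 ratio of these genes was 0.23. All 6 measured fibrillar collagen genes that entered this comparison were past the 5-fold size, with a median log2 ratio of 8.32. Nothing is read from these counts, because the rule used that contrast. Among the fibrillar genes outside the rule, Col5a2 and Col5a1, which nucleate fibrils, were at 743 and 647 CPM, and Col5a3 at 157 CPM. Col11a1, a cartilage collagen, had 0 UMIs.

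Beyond the fibrils, the cells held RNA of most parts of a connective tissue matrix. The microfibrillar Col6a1, Col6a2 and Col6a3 were at 1658, 1254 and 1092 CPM, and the basement membrane chains Col4a1 and Col4a2 at 1370 and 546 CPM. Col14a1, a collagen on the surface of fibrils, was at 804 CPM and Col15a1 at 475 CPM. Among 24 genes of matrix glycoproteins and proteoglycans, all had a UMI in at least 5% of members. Sparc, a collagen-binding glycoprotein, was highest at 12312 CPM in 97 cells, followed after Dcn by Mgp, an inhibitor of calcification, at 6300 CPM in 73 cells. Lum, Bgn and Dpt, which bind collagen fibrils, were at 2063, 1749 and 1648 CPM. The list summed to 43524 CPM, beside 217 in the other cKO cells and 1079 in epithelial cells. Each molecule is counted once in this 3′ assay, so levels of different genes are not divided by length.

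Genes that fold, trim and cross-link collagen accompanied these. Serpinh1, the collagen chaperone, was at 1542 CPM in 86 cells. Mmp2, a gelatinase, was at 657 CPM, Timp2, its inhibitor, at 855 CPM and Loxl2, a cross-linking oxidase, at 410 CPM. Pcolce and Adamts2, which help to cleave procollagen ends, were at 303 and 283 CPM. Of the 20 genes of this group, 19 were held by at least 5% of members.

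General fibroblast markers were mostly high, with exceptions. Gsn, an actin-severing protein, was at 5102 CPM in 86 cells and Igfbp7 at 3797 CPM in 95 cells. Pdgfra, the PDGF receptor that marks most fibroblasts, was at 480 CPM in 43 cells, Pdgfrb at 152 CPM in 21 cells, Cd34 at 632 CPM in 56 cells and Pdpn at 106 CPM. Thy1, which T cells also express, was at 10.1 CPM, beside 201 CPM in the other cells. Lgals1 and S100a6, also high in T cells, were at 1380 and 1249 CPM, below the 2241 and 2194 CPM of the other cells. Clec3b, a tetranectin gene common in adventitial fibroblasts, was at 1744 CPM in 78 cells, and Ly6a at 703 CPM. Pi16, a marker of adventitial fibroblasts, had 23 UMIs in 10 cells (116 CPM), Sema3c was at 182 CPM, and Dpp4 at 25.3 CPM was below the 69.9 CPM of the other cells.

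Genes of gut mesenchyme were far more abundant in the collagen-expressing cells than genes of thymic mesenchyme. Each list had 15 genes. The gut list had UMIs of 14 genes, 11 of them in at least 5% of members, and summed to 1313 UMIs in 90 cells (6639 CPM, 6285 to 7008). The thymic list had UMIs of 7 genes, 2 of them in at least 5% of members, and summed to 76 UMIs in 47 cells (384 CPM, 303 to 481). Over all features, 11537 of 32285 had a UMI in members, and nothing is read from these counts of genes. The gut list's sum was 17.3 times the thymic list's. Both lists were higher in members than in the other cell sets. The gut list was at 151 CPM in epithelial cells and 5.02 CPM in T cells, and the thymic list at 13.6 and 18.2 CPM. The T cells were chosen to hold no UMI of the rule's genes. Of the 101 cells, 46 held UMIs of both lists, 44 of the gut list only, 1 of the thymic list only and 10 of neither.

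The gut list rested largely on 1 gene. Adamdec1, a secreted metalloprotease known from gut fibroblasts and macrophages (chromosome 14, 68563380 to 68582095, minus strand), had 1040 UMIs in 73 cells (5258 CPM, 4944 to 5588), with 0, 8 and 40 UMIs per cell at its lowest, median and highest. Without it the list's other 14 genes summed to 273 UMIs in 74 cells (1380 CPM, 1221 to 1554), 3.59 times the thymic sum. The gut list was thus above the thymic list with and without its leading gene. Adamdec1 was at 71.8 CPM in epithelial cells and 0.193 CPM in T cells of the same library. After thinning to 1000 UMIs per cell, an Adamdec1 UMI was found in 74.4% of 90 members, 8.44% of 1232 epithelial cells and 0.03% of 3313 T cells, with 11, 339 and 13 shallower cells left out. Unthinned, the median depths were 1916, 1494 and 7034.5 UMIs. The share in members was above the share in both other cell sets. The T cells were chosen without UMIs of the collagen and decorin genes, so their low share is partly set by that choice. The epithelial cells were not chosen so, and 26.8% of them, unthinned, held a Col3a1 UMI.

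The transcription factors of the gut list were low but present. Nkx2-3, a homeobox factor of gut and spleen mesenchyme (chromosome 19, 43612325 to 43615892, plus strand), had 73 UMIs in 43 cells (369 CPM, 289 to 464), and 37 of those cells also held Adamdec1. Foxf1 and Foxf2, forkhead factors of visceral mesenchyme, had 19 and 9 UMIs (96.1 and 45.5 CPM) in 14 and 8 cells. Foxl1, a marker of telocytes under the gut epithelium, had 3 UMIs in 2 cells, and Sox6, 9 UMIs in 6 cells. Nkx3-2, a factor of the stomach and spleen anlage, had 0 UMIs. The factors thus ranged from 43 cells for Nkx2-3 to none for Nkx3-2.

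The signals of the gut list were each held by a minority of cells. The BMP antagonist Grem1 had 43 UMIs in 18 cells (217 CPM), the convertase Pcsk6 43 UMIs in 22 cells (217 CPM), and the ligand Bmp5 29 UMIs in 19 cells (147 CPM). F3, tissue factor, had 17 UMIs in 10 cells. Wnt5a had 10 UMIs in 9 cells and Bmp7 9 UMIs in 6. Wnt2b and Rspo3, which maintain crypt stem cells, had 5 and 4 UMIs, each in as many cells as UMIs. The last 4 genes were close to the limit of detection at this depth.

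On the thymic list, Cd248, endosialin, had 33 UMIs in 26 cells (167 CPM) and Aldh1a2, a retinoic acid-making enzyme, 28 UMIs in 23 cells (142 CPM). These 2 genes made 61 of the 76 UMIs, and neither is restricted to the thymus. Some genes of the gut list, such as Nkx2-3, are likewise not restricted to the gut. The other 13 thymic genes had 15 UMIs together. Fgf10, a growth factor for thymic epithelium, had 5 UMIs in 4 cells, Gdf10 had 5 UMIs in 1 cell, Ptn 3, Hoxa3 1 and Penk 1. The remaining 8, among them Prrx1, Foxc1, Tbx18, Twist1 and Pax3, had 0 UMIs. Adamdec1 was also held by 19 of the 26 cells with Cd248 and 22 of the 23 with Aldh1a2, beside 73 of all 101. By these genes most of the cells, chiefly the 73 with Adamdec1, looked like gut mesenchyme rather than thymic mesenchyme, although the sorted tissue is labelled thymus. That does not cover the 10 cells with UMIs of neither list or the 1 with the thymic list only. How the collagen-expressing cells came to be in the library was not tested.

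**Figure D1:**
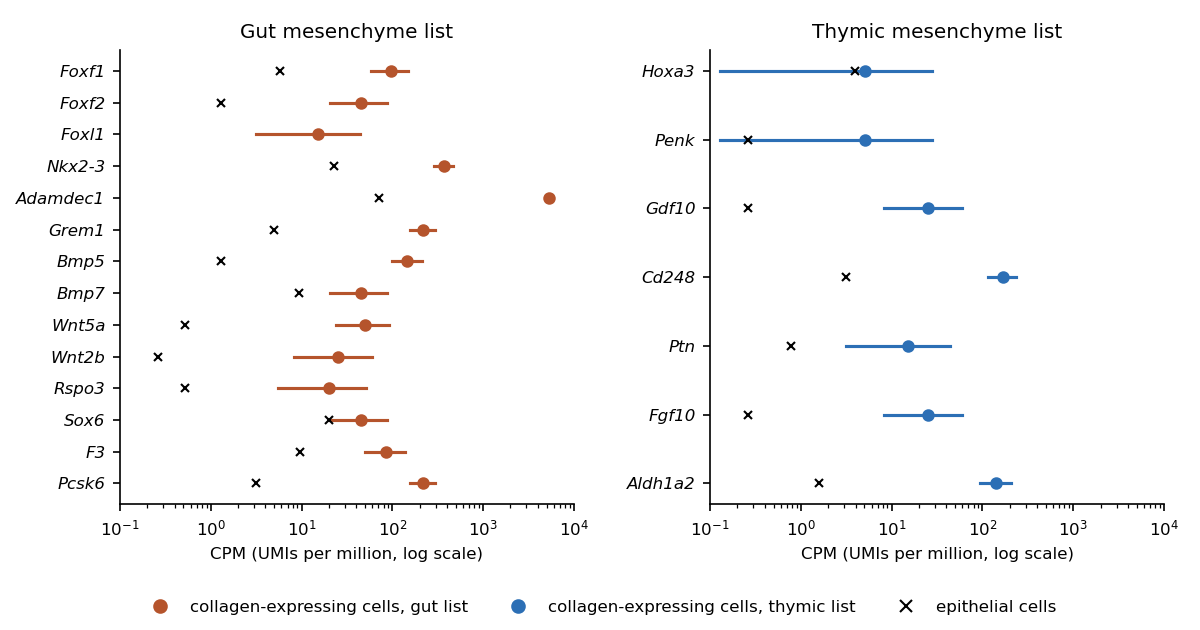
Levels, as CPM on a log axis, of the 14 gut and 7 thymic mesenchyme genes with a UMI in the 101 collagen-expressing cells. Coloured points with lines are these cells with exact 95% Poisson intervals, and crosses are the epithelial cells. Adamdec1 stands highest at 5258 CPM; genes with 0 UMIs are not drawn.

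Thymic epithelial markers, which mesenchyme of either organ should lack, were listed as a check for that cell type. Foxn1, Psmb11, Prss16 and 6 others of the 10 had 0 UMIs. The remaining one was Ctsl, cathepsin L, a protease that many cell types express, at 1704 CPM in 81 cells.

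Hox genes, which differ along the body axis, were low but present. UMIs were found for 17 of 39 Hox genes, 110 in all, in 62 cells (556 CPM), beside 75.4 CPM in epithelial cells and 5.45 CPM in T cells. Over all features, 11537 of 32285 had a UMI in members, so nothing is read from the 17 of 39. Hoxc8 (chromosome 15, 102990607 to 102994111, plus strand) led with 29 UMIs in 25 cells (147 CPM), a level of 3.13 CPM in epithelial cells. Hoxc6 had 12 UMIs, Hoxc9, Hoxa7 and Hoxb4 10 each, Hoxb2 9 and Hoxc4 7. None of the 12 genes of groups 10 to 13, which mark the hindgut and the posterior trunk, had a UMI. Of the genes with a UMI, 7 were of the Hoxb cluster, 5 of Hoxa, 4 of Hoxc and 1 of Hoxd. Hoxa3, the Hox gene needed for thymus formation, had 1 UMI. The Hox RNA was therefore of groups below 10, at 0 to 6 UMIs per cell.

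The cells held RNA of signals to epithelium and leukocytes. Sfrp1, a WNT inhibitor, was at 996 CPM in 64 cells. Bmp4 was at 334 CPM in 39 cells, the secreted Dkk3 at 228 CPM, and Hhip, which binds hedgehog ligands, at 162 CPM in 8 cells. Ptch1, the hedgehog receptor and target, was at 147 CPM. Of these, Sfrp1 was the broadest and Hhip the most confined. The chemokine Cxcl12, which attracts lymphocytes, was at 956 CPM in 68 cells, and Ccl11, eotaxin, at 521 CPM in 39 cells. Cxcl1 was at 293 CPM, Il33 at 116 CPM and Cxcl13, which draws B cells, at 101 CPM in 9 cells. Il7, which thymic stroma makes for developing T cells, had 1 UMI, and Ccl19 had 0.

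Growth factor binding, complement and retinoid genes followed. Igfbp4 and Igfbp5 were at 607 and 440 CPM and Igf1 at 243 CPM, while Kitl, the ligand of KIT, was at 207 CPM. Apoe was at 1901 CPM in 63 cells and the complement component C3 at 415 CPM in 22 cells. Rarres2, the precursor of chemerin, was at 1851 CPM in 89 cells, and the retinoic acid-making enzymes Aldh1a1 and Aldh1a3 at 273 and 101 CPM. Each of these genes had under 200 CPM in the other kept cKO cells. Outside the lists, the 15 genes with the highest ratio to the other cells included Pappa, a protease that cuts IGF binding proteins (197 CPM), Tcf21, a factor of visceral mesenchyme (379 CPM in 40 cells), Svep1 (339 CPM), Bicc1 (288 CPM), Igsf10 (405 CPM), Angptl1 (238 CPM), Kcnk2 (293 CPM), Fmo2 (748 CPM in 50 cells) and Cygb, a globin of fibroblasts (713 CPM in 66 cells). The other 6 were Robo2, Adamts19, Dclk1, C1qtnf3, Medag and Mab21l2.

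A contractile range lay within the members. At least 10 UMIs of Acta2, Tagln, Myh11, Actg2 and Des together were held by 17 of 101 cells (16.8%, 10.1 to 25.6%). Another 60 cells held 0, 18 held 1 to 4 and 6 held 5 to 9, and 4 of the 17 held 10 to 20, so the range has no sharp edge. The 4 cells with most contractile UMIs, 90 to 142 each, held 52.2% of the 875. Acta2 (chromosome 19, 34241090 to 34255590, minus strand) was at 1785 CPM over all members and at 1023 CPM without those 4 cells. Its RNA was thus concentrated in a few cells.

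The following values describe a range cut from these UMIs, and the contractile genes chose it. The 17 cells held Acta2 at 8127 CPM and Tagln, transgelin, at 8554 CPM, beside 300 and 137 CPM in the other 84. Myh11, smooth muscle myosin, was at 2718 CPM in 9 of the 17 cells, so 8 of them held none. All 11 members with a Myh11 UMI also held Acta2. Among genes that did not define the range, Cnn1, calponin, was at 959 CPM in 7 of the 17 cells and had 0 UMIs in the other 84. Hhip was at 799 beside 12.5 CPM (52.1-fold, 16.2 to 553), with 30 of its 32 UMIs in 6 of the 17 cells. The endothelin receptor Ednrb was at 506 beside 62.4 CPM (7.93-fold, 3.59 to 19.5), and the matrix proteoglycan Ogn at 986 beside 237 CPM (4.16-fold, 2.57 to 6.72).

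Several matrix genes were lower in the contractile cells, and others were not. Mgp was at 986 beside 7545 CPM, 7.55-fold lower (5.52 to 10.9), and the microfibril protein Fbln1 at 213 beside 1604 CPM, 7.09-fold lower (3.76 to 17.6). Dcn was at 3038 beside 11488 CPM and Col3a1 at 5862 beside 17267 CPM, and the median of the 4 rule genes was 21 UMIs beside 62.5. Members of both ranges had similar depth, with median UMIs of 2045 and 1908. Postn, periostin, was at 693 beside 393 CPM (1.78-fold higher, 1.07 to 2.82) and Col4a1 at 1892 beside 1248 CPM (1.52-fold higher, 1.14 to 2.00), as Ogn was higher. Col6a1 (1705 and 1647 CPM) and Igfbp7 (3917 and 3769 CPM) were within counting error of each other.

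Gut mesenchyme genes were held on both sides, some more in one. Adamdec1 was at 4743 CPM in the contractile cells and 5379 CPM in the others (ratio 0.88, 0.75 to 1.04), in 15 of 17 and 58 of 84 cells. Nkx2-3 was at 640 beside 306 CPM (2.11-fold, 1.23 to 3.48), Bmp5 at 320 beside 106 CPM (3.05-fold, 1.31 to 6.70) and Pcsk6 at 560 beside 137 CPM (4.08-fold, 2.13 to 7.77). Foxf1 was at 213 beside 68.6 CPM, with 8 UMIs in 8 of the 17 cells. Grem1 went the other way, with 1 UMI in 1 of the 17 cells and 42 UMIs in 17 of the 84. The fibroblast marker Pdgfra was at 746 beside 418 CPM (1.80-fold, 1.11 to 2.81), in 8 of the 17 cells. Among the 17, most Pdgfra and Bmp5 UMIs were in cells without a Myh11 UMI, so sums over the 17 average unlike cells. These intervals cover counting error within 1 library and not differences between mice.

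**Figure D2:**
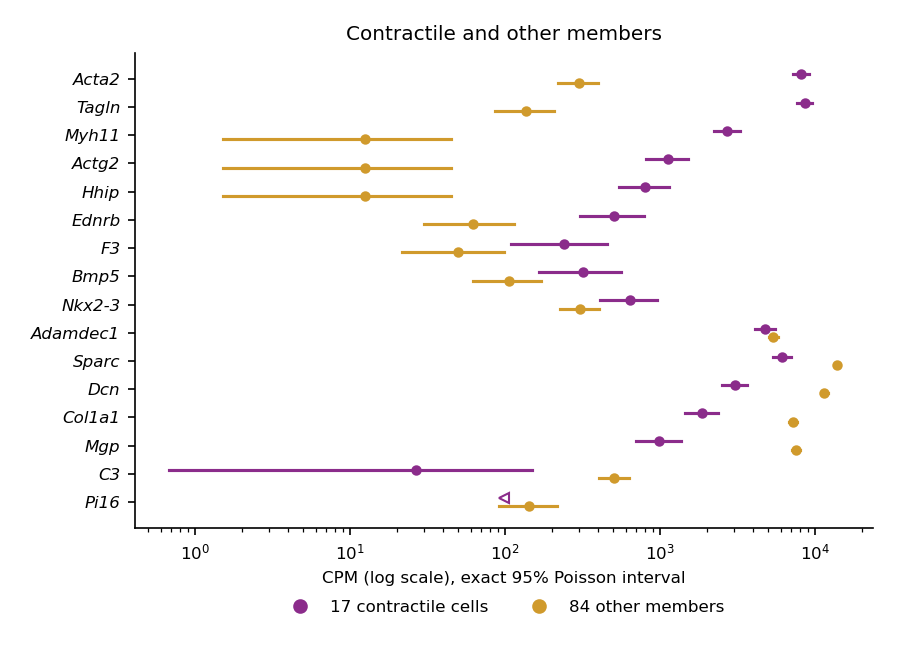
CPM on a log axis of 16 genes in the 17 contractile cells and the 84 other members, with exact 95% Poisson intervals; the open triangle marks the upper bound of the interval where a gene had 0 UMIs. Acta2 and Tagln chose the range; Mgp and Dcn are lower in the contractile cells and Adamdec1 is at a similar level in both.

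**Figure D3:**
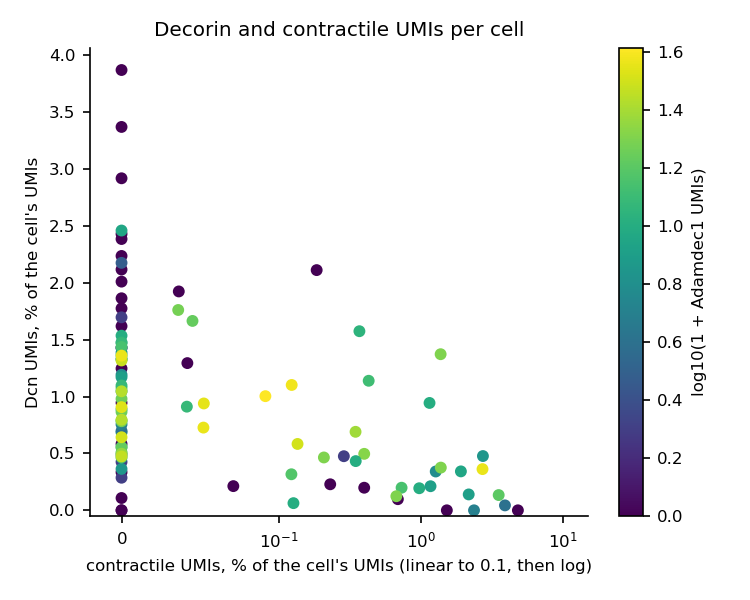
Each point is 1 of the 101 cells. The x axis is the share of its UMIs on the 5 contractile genes, the y axis the share on Dcn, and the colour its Adamdec1 UMIs on a log scale. Cells with and without Adamdec1 are found at low and high contractile shares, the cell with the highest contractile share has none, and the highest Dcn shares are at 0 contractile UMIs.

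Adamdec1 and Pi16 were not found together. This pair was chosen after its values were seen. Of 10 cells with a Pi16 UMI, 0 held Adamdec1, while 73 of the other 91 did, with a median of 9 UMIs in cells without Pi16. Of the 10 Pi16 cells, 9 also held Mfap5, a microfibril protein, and 6 held Grem1. Of 18 Grem1 cells, 6 held Adamdec1, and all 19 Bmp5 cells did. No Pi16 cell held Acta2. The 22 cells with a Pi16 or Grem1 UMI had a median of 2103 UMIs, beside 1771 in the other 79, so they were not the shallower ones. They had more matrix RNA, with a median of 151 rule UMIs beside 48.

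The 61 cells with at least 5 Adamdec1 UMIs and the 28 with none were set side by side, a split also chosen after values were seen. C3 was 8.52-fold lower in the Adamdec1 cells (125 beside 1091 CPM, 4.94 to 16.2). Col14a1 was 4.98-fold lower (376 beside 1880 CPM, 3.51 to 7.22) and the tetraspanin Cd81 was at 7.82 beside 526 CPM. Ccl11 was 8.46-fold higher (712 beside 75.2 CPM, 3.57 to 35.5). Bmp4 was at 477 beside 37.6 CPM, Tcf21 at 485 beside 132 CPM and Col6a1 at 2042 beside 884 CPM. Ccl11, Bmp4 and Col6a1 RNA thus went with Adamdec1, and C3 and Col14a1 RNA with its absence. Other chemokines differed, with Cxcl12 1.75-fold higher in the Adamdec1 cells and Cxcl13 lower (54.8 beside 188 CPM, in 5 and 2 cells). Fabp2 was also higher in the cells without Adamdec1, at 2012 beside 172 CPM, and 5 of the 7 members with much epithelial RNA were among those 28. Without them, Fabp2 was at 103 CPM in the remaining 23, C3 at 1196 CPM, Col14a1 at 2063 CPM and Ccl11 at 82.5 CPM. Hoxc8 was alike, at 149 and 150 CPM.

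**Figure D4:**
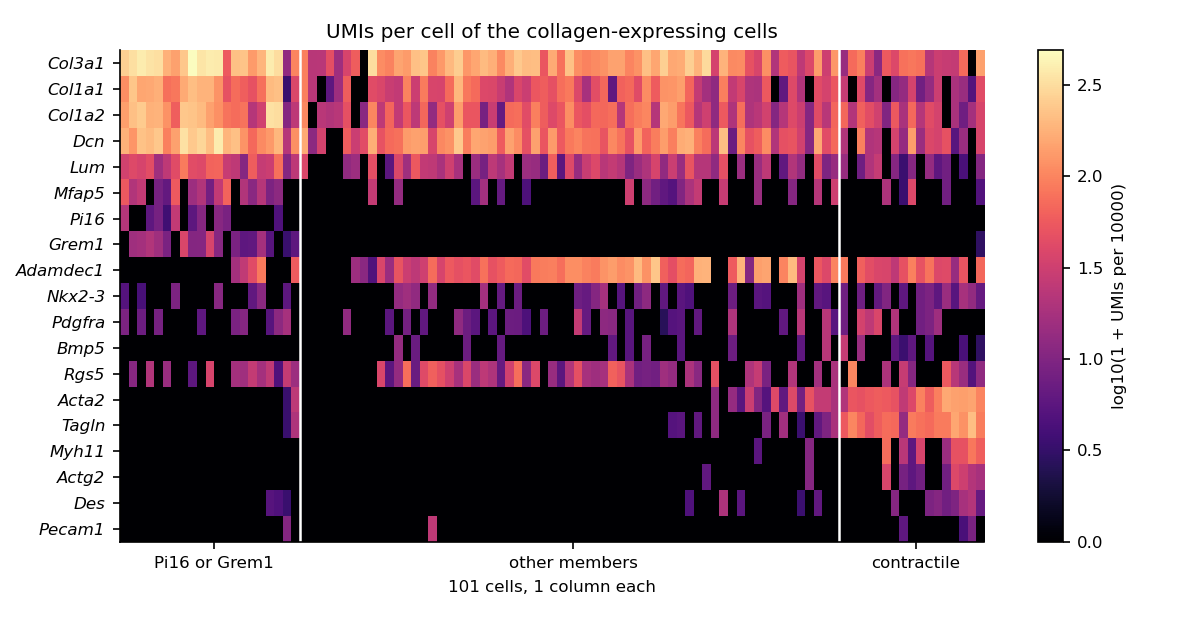
UMIs per 10000 of each of the 101 cells (columns, on a log scale) for 19 genes (rows). White lines separate the non-contractile cells with a Pi16 or Grem1 UMI, the other non-contractile members and the 17 contractile cells; Adamdec1 is empty in every column that holds Pi16.

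Pericyte and endothelial genes were uneven. Rgs5, a marker of pericytes, was at 1431 CPM in 65 cells. Kcnj8, Cspg4, Notch3 and Abcc9, which pericytes also express, had 8 to 12 UMIs each, and Higd1b had 0, so the list of 10 rested on Rgs5. Blood endothelial markers (Pecam1, Cdh5, Kdr and 7 more) summed to 86 UMIs in 25 cells (435 CPM), 69.8% of them in 5 cells, and 3 members held at least 5. Of 6 lymphatic markers, 5 (Prox1, Lyve1, Mmrn1, Flt4 and Reln) had 0 UMIs, and Ccl21a had 5 UMIs in 2 cells. All 6 mesothelial markers (Msln, Upk3b, Wt1 and 3 more) had 0. Kit, the defining gene of interstitial cells of Cajal, had 0 UMIs, and Ano1 had 3. The list of 5 genes for that cell type still summed to 55 UMIs in 33 cells (278 CPM, beside 111 CPM in the other cells). Its remaining UMIs were of Etv1, Gucy1a1 and Prkcq. B cell markers (Cd79a, Cd79b, Ms4a1 and 3 more) summed to 126 CPM and plasma cell markers to 298 CPM, of which 182 were Xbp1, a secretory pathway factor that other cells use. Of the B cell UMIs, 84% were in 5 cells.

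Gut epithelial RNA was at a few UMIs in most members that held it and high in 7. The list of 22 gut epithelium genes (Epcam at 0 by the rule, Vil1, Krt8 and others) summed to 593 UMIs in 70 members (2998 CPM), beside 126414 CPM in epithelial cells and 129 CPM in T cells. Of the members, 31 held 0 such UMIs, 58 held 1 to 4 and 12 held 5 or more, with a highest count of 118, and 5 cells held 70.5% of them. In the 94 members that held no more of these UMIs than of the rule's, the list was at 674 CPM, with a highest count of 13. Fabp2 (799 CPM) and Fabp6 (657 CPM) led. In cells thinned to 1000 UMIs, 46.7% of members and 11.2% of T cells held such a UMI. The T cells were chosen with fewer than 5 UMIs of Epcam, Vil1, Krt8, Krt18 and Krt19 together. Their values for this list are therefore limited by that choice. Without the other 7 members, Col3a1 was at 15515 CPM, the gut mesenchyme list at 6843 CPM and the thymic list at 397 CPM, and the contractile cells again numbered 17.

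**Figure D5:**
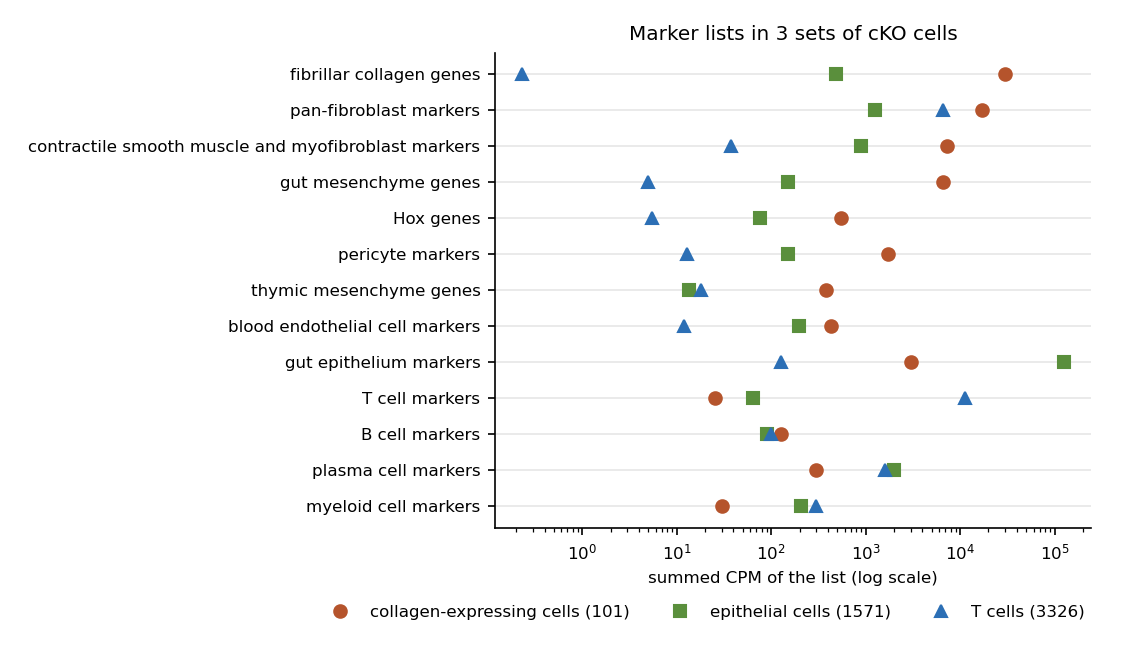
Summed CPM, on a log axis, of 13 marker lists in the 101 collagen-expressing cells, 1571 epithelial cells and 3326 T cells of the cKO library. Of the 3 sets, the collagen-expressing cells are highest for the fibrillar collagen, fibroblast, contractile, gut mesenchyme, Hox, pericyte, thymic mesenchyme and blood endothelial lists. For the B cell list they are at 126 CPM (81.8 to 187). That interval holds the 99.1 CPM of the T cells and the 91.1 CPM of the epithelial cells. They are lowest for the T cell list, at 25.3 CPM, and for the plasma cell and myeloid lists. By construction the T cells lack the collagen genes of the rule. They also hold fewer than 5 UMIs of Epcam, Vil1, Krt8, Krt18 and Krt19 together.

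The last lists describe the state of the cells. The list of 16 immediate early and heat shock genes summed to 12206 CPM, beside 3734 CPM in the other cells, and 6 of its 16 genes were at least 5-fold higher, where 17.7% of all genes compared were; nothing is read from that count. Fos was at 2781 beside 452 CPM and Egr1 at 1598 beside 96.8 CPM. Antigen presentation and interferon genes summed to 2634 CPM beside 9679 CPM, with B2m at 728 beside 2181 CPM. Cell cycle genes had 54 UMIs in 15 cells (273 CPM, beside 460 CPM). Of these, 35 were in 1 cell, without which the list was at 98.1 CPM.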

How the data were processed

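The deposited matrices hold whole-number UMI counts per gene and barcode, which the authors made from 3′ v2 libraries per the labels' protocols, with Cell Ranger 2.1.1 on mm10 per the submitters' processing notes. In the file headers the version is 3.0.0, and both are given as they stand. The aligner's settings were not given in the sources used here, nor was the annotation release.

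UMIs of members were summed per gene and divided by their summed UMIs to give CPM, with exact 95% Poisson intervals. Shares have exact Clopper-Pearson intervals. Ratios have 0.5 UMIs added to both sums and exact conditional binomial intervals. A count of 0 was set against a limit of 3 UMIs. Intervals cover counting error only, and with 1 library per genotype no test was made. Epithelial cells held at least 5 UMIs of Epcam, Vil1, Krt8, Krt18 and Krt19, and no CD3 UMI. T cells held at least 2 CD3 UMIs, no UMI of the collagen and decorin genes and fewer than 5 UMIs of those epithelial genes, by construction. No doublet caller was run, and UMIs of other cell types were counted instead. Comparisons of shares between members, epithelial cells and T cells used cells thinned to 1000 UMIs. Numbers of cells compared within the members were not thinned. The ratio intervals and the 5-fold rule were tested on simulated counts, and the other calculations were not.

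The members and lists were chosen with earlier results of these data known. Genes of the rule, Acta2, Ets1, Tbx21, Ptprc and the first 3 genes of each marker list were to be named whatever their values, with up to 6 members of each list with most UMIs, both origin lists and the Hox genes. Outside the lists the rule took the 15 genes with the highest ratio among those of at least 100 CPM in 20% of members. Where a group was near 0 only its sum is given, so some genes of this rule are not named, and some are not reported here. Coordinates come from the GENCODE annotation of GRCm38, in which 99.8% of feature identifiers were found. Alternatives covered the filters, the rule's thresholds, doublets, weighting and scaling. Calculations used numpy 2.4.6, pandas 2.3.3 and scipy 1.17.1 in Python 3.11.15, and figures matplotlib 3.10.9.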

Additional observations from a re-analysis of the deposited data

Results flagged for a closer look

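Signal appeared outside the kept cells. Among cKO barcodes that failed the cell filter, 79 met the collagen, CD3 and Epcam conditions, beside 0 control barcodes. Of these, 70 were under the gene minimum and 43 over the mitochondrial maximum, and their median was 569 UMIs. They held Col3a1 at 5735 CPM, Dcn at 4286 CPM, Acta2 at 2930 CPM and Adamdec1 at 1699 CPM, with an Adamdec1 UMI in 34 of the 79.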

How the results depend on the processing

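Of 138 values under other settings, 90 stayed within their counting interval (numbers of cells within 1.5 times) and 48 did not. The gut list's sum stayed 15.4 to 18.7 times the thymic list's over the 14 alternatives that change the cells or their weights. The number of members was 56 at 1000 genes and 259 without the Epcam condition. Col3a1 was at 13814 CPM with 3 rule UMIs, 15935 with 10, 14232 at 300 genes, 15889 at 5% mitochondrial UMIs, 14405 at 20%, 14183 without the CD3 condition, 6824 without the Epcam condition, 14237 with every cell weighted equally and 18302 with the total taken without mitochondrial and ribosomal protein genes. The gut list was at 6075 CPM with 3 rule UMIs, 6207 at 300 genes, 6259 without the CD3 condition, 2843 without the Epcam condition and 8045 with that reduced total, and the thymic list at 177 CPM without the Epcam condition. Contractile members numbered 11 at 1000 genes and 8 at 5% mitochondrial UMIs. The cells added without the Epcam condition held much epithelial RNA. Leaving out members with 5 or more blood endothelial UMIs, or the 4 with most contractile UMIs, was chosen after seeing the data, as was leaving 5 epithelium-rich members out of the Adamdec1 split. Depth limits genes with few UMIs, such as Foxl1, Wnt2b and Rspo3. No paired analysis was possible because each genotype has 1 library.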
